A study of Mus musculus with 6 samples.

Results

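The genes described here are those of protein phosphatase 1 (PP1), calcineurin, protein phosphatase 5 and the PPM phosphatases. They are genes of serine/threonine phosphatases outside the PP2A branch, or genes named as their regulators, and do not cover all phosphatases of that kind. Members were taken by symbol: names starting with Ppp1c, Ppp1r, Ppp3c or Ppp3r, Ppp5c, and Ppm1 followed by a letter from a to n, without Ppp1r15a and without symbols ending in -ps and digits. The rule found 61 of the 52550 genes listed. Of these, 48 reached a value of 1 in 3 or more libraries and entered the test, among 20136 genes tested in all. Of the other 13, 9 were at 0 in every library: the PP1 inhibitor genes Ppp1r1c, Ppp1r14a, Ppp1r14c, Ppp1r14d and Ppp1r17, the glycogen-targeting genes Ppp1r3a and Ppp1r3g, Ppp1r32, and the calcineurin B gene Ppp3r2. Ppp1r1a, Ppp1r1b, Ppp1r3c and Ppm1n were above 0 in 1 or 2 libraries, with values of at most 11.4. A count of 0 allows up to 3 reads in a library.

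Poly(A) RNA was sequenced from mouse bone marrow cells that the labels call hematopoietic stem cells. The 3 knockout (KO) libraries came from mice with floxed Ppp2ca alleles and VAV1cre, a recombinase transgene driven by a promoter active across blood cells. The 3 wild-type (WT) libraries came from mice with the same floxed alleles, and no Cre is named for them. Ppp2ca encodes the main catalytic subunit of PP2A. The labels give no age, sex, surface markers or pooling, and nothing states that libraries came from separate animals, so p-values measure only the spread between these 6 samples. The comparison asked whether other serine/threonine phosphatase genes shifted in the KO cells.

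PP1, PP2A, calcineurin and protein phosphatase 5 belong to the PPP family, which shares a metal-containing catalytic core. PP1 has few catalytic subunits and many regulatory partners, which inhibit it or carry it to a substrate. Calcineurin is a calcium- and calmodulin-activated phosphatase that dephosphorylates NFAT transcription factors. PPM phosphatases are an unrelated fold that needs added magnesium or manganese and act mostly as single subunits.

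The libraries held 46033994 to 58692037 reads over genes in KO and 37951985 to 48665968 in WT. The deposited values are read counts divided by a size factor per library, called normalised reads here, and they summed to 49336024 to 50641650 in KO and 44391581 to 46310456 in WT. Ppp2ca had 23728, 22419 and 24046 normalised reads in KO and 32909, 33451 and 33169 in WT. All 3 KO values lay below all WT values, and KO kept 70.5% of the WT mean. Of the short marker lists used to check the labelled cell type, 7 of 8 stem cell genes fell, with summed levels of 16775 to 20446 in KO and 35015 to 45311 in WT, and all 5 granulocyte-monocyte progenitor genes rose (1.85e+06 to 2.06e+06 in KO, 1.24e+06 to 1.47e+06 in WT). All 6 erythroid genes (3482 to 4488 summed in KO, 12277 to 16363 in WT), all 6 megakaryocyte and platelet genes (4776 to 6646 in KO, 20410 to 24587 in WT) and all 6 dendritic cell genes (8758 to 9651 in KO, 26704 to 32533 in WT) fell. Of 6 mast cell and basophil genes 5 fell (11054 to 14624 in KO, 32881 to 40198 in WT), and of 6 macrophage genes 3 fell and 1 rose (21106 to 32025 in KO, 57336 to 65979 in WT). Of 6 neutrophil genes 1 fell and 1 rose (29413 to 72413 in KO, 31746 to 68653 in WT). Of 6 B lineage genes 1 fell (2371 to 3713 in KO, 13344 to 32144 in WT), with Pax5 and Ebf1 at 0 throughout. Of 6 T and NK genes 2 fell and 1 rose (41656 to 43837 in KO, 33482 to 35054 in WT), with Cd8a at 0 throughout. That sum is mostly Nkg7, which rose, with a mean of 42658 in KO and 34159 in WT, whereas the T cell receptor genes Trbc1 (12.2 in KO, 171 in WT) and Trbc2 (5.94 in KO, 60.8 in WT) fell. Of 6 stromal and endothelial genes 3 fell (Emcn, Kdr and Pecam1), Cdh5 was at 0 throughout, and Cxcl12, at 0 in every KO library, is not counted because it passed the filter through WT alone. Bulk values cannot tell fewer cells of a type apart from less RNA per cell, and the part of these differences in the results below was not tested.

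The upstream sequences of 4 members are shown because their calls held in at least 18 of 19 alternative analyses: Ppp1r16b and Ppp1r13b, which fell, and Ppm1f and Ppp1r2, which rose. Each is the part of the 250 bases before a RefSeq transcription start (GRCm38.p6) that lies outside the gene's own GENCODE exons. All are given 5′ to 3′ on the gene's strand. For Ppp1r16b and Ppp1r13b the bases next to the RefSeq start are exonic, so the printed stretches stop short of it. Both Ppp1r16b stretches lie inside the gene, between exons, after its GENCODE start at 158665398. Sequence before that start is not shown. Capitals mark matches to the E-box CACGTG, the GATA motif AGATAA, the ETS core CCGGAA or the RUNX core TGTGGT, on either strand.
Ppp1r16b, upstream start (chr2:158666483-158666629, plus strand): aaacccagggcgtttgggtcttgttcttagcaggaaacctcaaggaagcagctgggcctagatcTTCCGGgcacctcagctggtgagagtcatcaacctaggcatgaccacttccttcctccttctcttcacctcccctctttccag
Ppp1r16b, downstream start (chr2:158666885-158667118, plus strand): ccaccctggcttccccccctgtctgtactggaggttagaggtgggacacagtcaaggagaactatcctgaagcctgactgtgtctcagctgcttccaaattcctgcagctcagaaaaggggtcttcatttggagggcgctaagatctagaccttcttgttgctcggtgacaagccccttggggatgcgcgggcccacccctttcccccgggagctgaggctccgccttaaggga
Ppp1r13b (chr12:111908111-111908305, minus strand): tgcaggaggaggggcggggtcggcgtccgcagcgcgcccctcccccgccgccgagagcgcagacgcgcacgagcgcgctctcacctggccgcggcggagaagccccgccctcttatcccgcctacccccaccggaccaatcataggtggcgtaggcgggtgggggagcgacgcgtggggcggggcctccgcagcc
Ppm1f (chr16:16896219-16896468, plus strand): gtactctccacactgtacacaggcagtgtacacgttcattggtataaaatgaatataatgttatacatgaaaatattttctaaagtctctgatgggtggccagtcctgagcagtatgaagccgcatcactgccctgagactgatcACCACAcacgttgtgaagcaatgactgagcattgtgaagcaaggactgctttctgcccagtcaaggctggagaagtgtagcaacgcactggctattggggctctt
Ppp1r2 (chr16:31275278-31275527, minus strand): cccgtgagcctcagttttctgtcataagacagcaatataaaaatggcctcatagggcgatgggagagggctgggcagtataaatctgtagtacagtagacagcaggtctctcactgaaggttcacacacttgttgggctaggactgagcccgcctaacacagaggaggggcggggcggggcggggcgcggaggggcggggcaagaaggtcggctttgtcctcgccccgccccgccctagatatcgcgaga
The windows differ in base composition. Over 250 bases, Ppp1r13b held 35 CpG sites at 76.8% G+C and Ppp1r2 held 15 at 59.2%, whereas Ppm1f held 4 at 46% and the Ppp1r16b windows 5 and 7. The median of 32851 RefSeq windows was 6 sites and 52.4%. The upstream Ppp1r16b window held 1 ETS match and, in its exon part not printed, 1 GATA match, and the Ppm1f window held 1 RUNX match. Of the 4 motifs, none matched in the Ppp1r13b or Ppp1r2 window. Across all RefSeq windows, 6.02% held the E-box, 9.99% the GATA motif, 12% the ETS core and 14.0% the RUNX core. Among 38 members with a window, 2, 2, 7 and 5 held them in that order in any of their windows. These counts are per gene and the shares are per window, so they cannot be compared directly.

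Of the 48 tested members, 8 rose and 3 fell in KO (limma on log2(value + 1), Benjamini-Hochberg adjusted p below 0.05 over all genes tested). The 11 calls are 22.9% of the members, against 23.3% of all genes tested, so the share of members called was near the background. By direction, 16.7% of members rose and 6.25% fell, against 10.3% and 13% of all genes. The median log2 fold change was 0.18 over the members and −0.02 over all genes. All 8 rises were under 2-fold, at 0.30 to 0.69 on the log2 scale, and all 3 falls were over 2-fold. Among all called genes, 23.8% of the rises and 63.7% of the falls reached 2-fold.

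**Figure D1:**
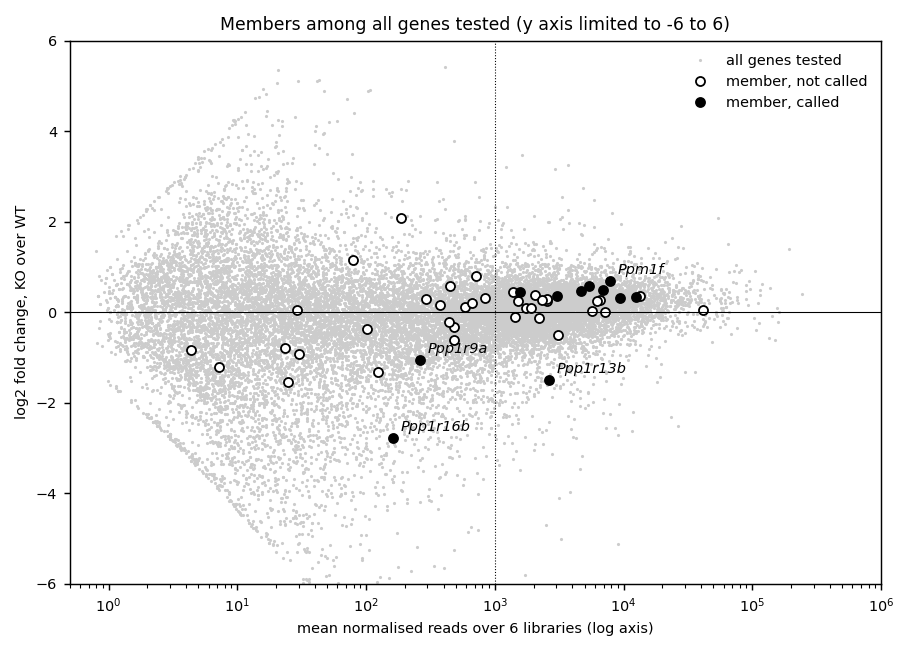
Log2 fold change of KO over WT against the mean of normalised reads over the 6 libraries (log axis), for all 20136 genes tested (grey) and the 48 members (circles, filled where adjusted p is below 0.05). Genes beyond the limits of either axis are not drawn. The 8 members that rose all lie right of the dotted line at 1000, and Ppp1r16b and Ppp1r9a lie left of it.

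The called direction went with expression level, as it did in the whole table. Of 26 members with a mean of at least 1000 normalised reads, 8 rose and 1 fell, against 21.3% and 12.1% of the 7510 genes at that level. Of 22 members below 1000, 0 rose and 2 fell, against 3.7% and 13.6% of 12626 genes. The groups did not overlap in 21 of 48 members (43.8%), with KO above WT in 17 and below in 4, against 40.9% of all genes. The spread within a group was modest: the median coefficient of variation was 12.7% in KO and 15.9% in WT over the members, and 19.8% and 19.1% over all genes.

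The count of rises was 10 with TMM scaling, 7 with upper quartile scaling and 7 with quantile normalization, and it fell to 1 when limma ran with no intensity trend. Similar counts did not mean the same genes. Quantile normalization lost the calls of Ppp1cc, Ppp3r1, Ppm1h and Ppp1r15b and added Ppm1e, Ppp1r12c and Ppp1r3e. Upper quartile scaling lost Ppp1cc and Ppm1h and added Ppp1r8. The deposited values sum to more in every KO library, and when values were scaled to the total reads of each library, 2 members rose, Ppm1f and Ppp1r2, and 3 fell. That scaling moved the median log2 fold change of all genes to −0.15 and of the members to 0.04, and it called 1307 genes higher and 3431 lower, against 2069 and 2622 on the deposited scale. The members held 0.354%, 0.341% and 0.353% of all normalised reads in KO and 0.340%, 0.333% and 0.339% in WT. The count of 8 rises became 4 without KO replicate 1, 2 without KO replicate 3 and 4 without WT replicate 1, and the count of 3 falls became 5 without KO replicate 2.

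**Figure D2:**
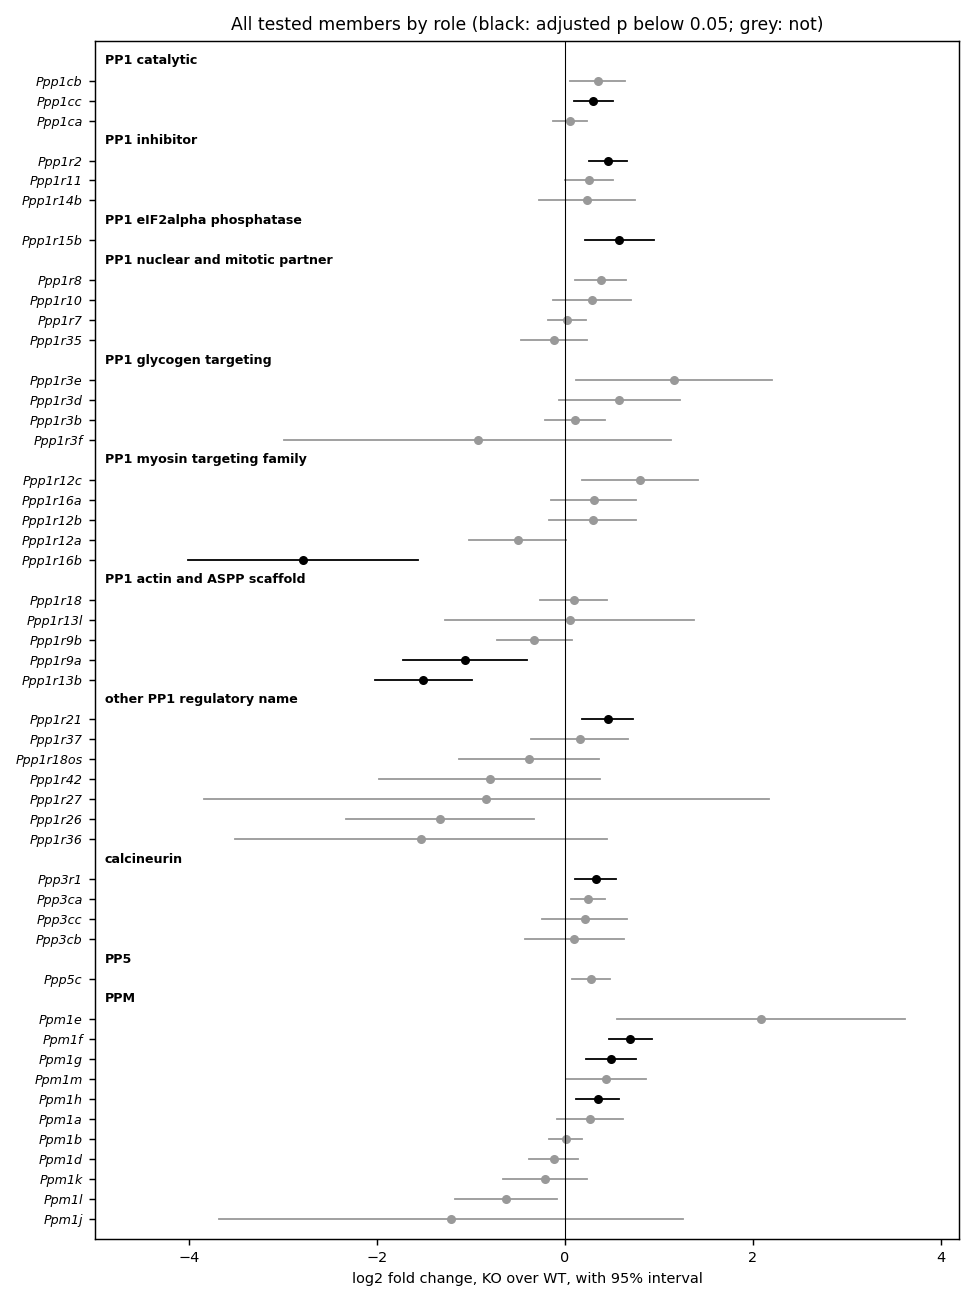
Log2 fold change of KO over WT with its 95% interval for each of the 48 tested members, grouped by role, black where adjusted p is below 0.05. The intervals of Ppp1r16b, Ppp1r13b and Ppp1r9a lie below 0, and the 8 members that rose sit between 0.30 and 0.69.

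Of the 3 PP1 catalytic genes (33.3% called, against 23.3% of all genes tested), Ppp1cc rose, and Ppp1ca and Ppp1cb did not pass the test. Ppp1ca, the alpha isoform, was the most abundant member, with 42741, 41062 and 42365 normalised reads in KO and 38583, 39468 and 43671 in WT. The groups overlapped, and its log2 fold change was 0.05, with a 95% interval of −0.13 to 0.23 (adjusted p = 0.67, limma). Its sign turned with quantile normalization (−0.23) and with scaling to total reads (−0.09). Ppp1cc, the gamma isoform (chromosome 5, 122158278 to 122175273), had 10767, 9757 and 10741 in KO and 7961, 8166 and 9252 in WT. Every KO library was above every WT library, with means of 10421 ± 575 and 8459 ± 694 (SD, n = 3 each) and a log2 fold change of 0.30 ± 0.09 (SE, adjusted p = 0.0469, limma). Ppp1cc missed the threshold in 10 of 19 alternatives. Its adjusted p was 0.111 to 0.162 without KO replicate 1, KO replicate 3, WT replicate 1 or WT replicate 2, and 0.245 with scaling to total reads. Ppp1cb, the beta isoform, had 17366, 12652 and 15516 in KO and 12092, 12554 and 10841 in WT, without overlap but with KO replicate 2 close to WT replicate 2. Its log2 fold change was 0.35 ± 0.13 (SE, adjusted p = 0.0838, limma). Ppp1cb passed in 3 of 19 alternatives. These were without KO replicate 2 (0.48, adjusted p = 0.0180, limma), with library quality weights (adjusted p = 0.0184, limma) and with DESeq2 (adjusted p = 0.0431). Per kilobase of exon, Ppp1ca made up 78.2%, 80.3% and 78.7% of the PP1 catalytic total in KO and 81.7%, 81.6% and 82.4% in WT. Ppp1cc made up 14.5%, 14.0% and 14.7% in KO and 12.4%, 12.4% and 12.9% in WT. Ppp1cb gave the remainder, 5.71% to 7.33% in KO and 4.72% to 5.99% in WT, so the order of the isoforms by this measure was the same in all 6 libraries. The order of Ppp1cb and Ppp1cc rests on the length used, the union of all annotated exons, 10913 bases for Ppp1cb and 3424 for Ppp1cc. In normalised reads not divided by length, Ppp1cb was above Ppp1cc in every library. Which transcripts the cells express was not tested.

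**Figure D3:**
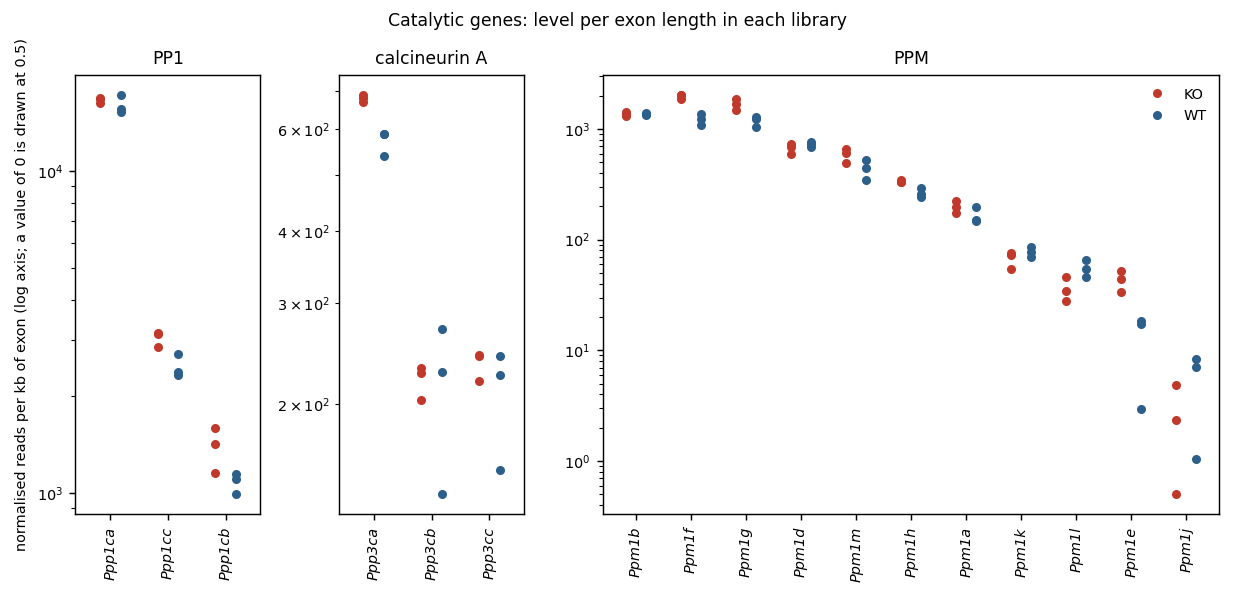
Normalised reads per kilobase of exon (log axis) of the catalytic genes of PP1, calcineurin and the PPM family, 1 point per library, KO in red to the left of WT in blue; the 1 value of 0 (Ppm1j, KO replicate 3) is drawn at 0.5. Ppp1ca leads the PP1 genes in every library, and the KO points of Ppm1f and Ppm1g lie above their WT points.

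Among the 3 tested PP1 inhibitors (33.3% called, against 23.3% of all genes tested), Ppp1r2 rose, and Ppp1r11 and Ppp1r14b did not pass. Ppp1r2 encodes inhibitor 2, which binds the PP1 catalytic subunit directly (chromosome 16, 31251537 to 31275277). It had 5566, 5102 and 5553 normalised reads in KO and 3869, 4164 and 3752 in WT. The groups lay well apart, at 5407 ± 264 and 3928 ± 213 (SD, n = 3 each), and the log2 fold change was 0.46 ± 0.09 (SE, adjusted p = 0.00881, limma). The call held in 18 of 19 alternatives, among them scaling to total reads (0.32, adjusted p = 0.0271), and missed the threshold when limma ran with no intensity trend (adjusted p = 0.0539). Ppp1r2 has processed copies, and the 7 pseudogenes that the rule leaves out summed to 23.6 to 27.9 in KO and 10.4 to 40.9 in WT, far below Ppp1r2 itself. Ppp1r11, inhibitor 3, had 2721, 2766 and 2770 in KO and 2068, 2258 and 2620 in WT, without overlap (0.26, adjusted p = 0.140, limma). Ppp1r14b, a relative of the smooth muscle inhibitor CPI-17, had 1827, 1301 and 1741 in KO and 1061, 1308 and 1826 in WT, and the groups overlapped. The eIF2alpha phosphatase subunit Ppp1r15b, known as CReP, keeps eIF2alpha dephosphorylated in unstressed cells. It rose, with 5860, 6951 and 6503 in KO and 5039, 4688 and 3360 in WT, without overlap and with WT replicate 3 lowest (chromosome 1, 133131143 to 133139783). Its log2 fold change was 0.58 ± 0.16 (SE, adjusted p = 0.0337, limma), and it missed the threshold in 6 of 19 alternatives. The adjusted p was 0.0553 to 0.10 without KO replicate 2, KO replicate 3 or WT replicate 2 and 0.0955 with scaling to total reads. A short unclassified gene on the opposite strand, Gm26616, covers 11.4% of the exons of Ppp1r15b, so part of their reads cannot be told apart.

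The 3 members that fell were Ppp1r16b, Ppp1r13b and Ppp1r9a. Ppp1r16b, which encodes TIMAP, a membrane-anchored PP1 partner known from endothelial cells (chromosome 2, 158665398 to 158766334), had 20.4, 50.1 and 45.7 normalised reads in KO and 453, 266 and 138 in WT. All KO values were below all WT values, although the WT libraries varied widely. The means were 38.7 ± 16.1 in KO and 286 ± 158 in WT (SD, n = 3 each), 13.6% of the WT level, and the log2 fold change was −2.79 ± 0.53 (SE, adjusted p = 0.00884, limma). The call held in 19 of 19 alternatives, at −3.23 to −2.38. Beside it, the stromal and endothelial list summed to 2104 to 4163 in KO and 5840 to 6017 in WT, with Cdh5 at 0 in all libraries, Cxcl12 at 0 in KO and Col1a1 at 0 in WT. That sum includes Cxcl12 and is mostly Pecam1, with a mean of 3117 in KO and 5229 in WT. Emcn had means of 37.1 in KO and 603 in WT, and Kdr 4.88 in KO and 75.1 in WT. Of the 8 stem cell genes 7 fell, and the part of either list in the fall of Ppp1r16b was not tested.

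Ppp1r13b encodes ASPP1, which binds p53 and promotes its activation of apoptosis genes (chromosome 12, 111828457 to 111908110). It had 963, 1877 and 1413 in KO and 3766, 3704 and 4226 in WT, with KO replicate 1 lowest and no overlap. The means were 1418 ± 457 in KO and 3899 ± 285 in WT (SD, n = 3 each), 36.4% of the WT level, with a log2 fold change of −1.51 ± 0.22 (SE, adjusted p = 0.00353, limma). The call held in 19 of 19 alternatives, at −1.74 to −1.26. Ppp1r9a, the actin-binding scaffold neurabin (chromosome 6, 4902917 to 5165661), fell as well, with 117, 221 and 180 in KO and 406, 359 and 295 in WT and no overlap. Its log2 fold change was −1.06 ± 0.28 (SE, adjusted p = 0.0314, limma), and Ppp1r9a missed the threshold in 7 of 19 alternatives. The adjusted p was 0.0589 to 0.0979 without KO replicate 1, KO replicate 3, WT replicate 1 or WT replicate 2. The relatives of these 2 genes did not pass: Ppp1r9b, spinophilin, had 430, 376 and 475 in KO and 471, 547 and 586 in WT (−0.33, adjusted p = 0.217, limma), and Ppp1r13l, the p53 inhibitor iASPP, had 27.9, 16.7 and 43.1 in KO and 24.6, 45.7 and 16.1 in WT. Ppp1r18, the actin-associated phostensin, overlapped between the groups (0.09). The paralogues thus differed in their values, but the difference between paralogues was not tested.

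**Figure D4:**
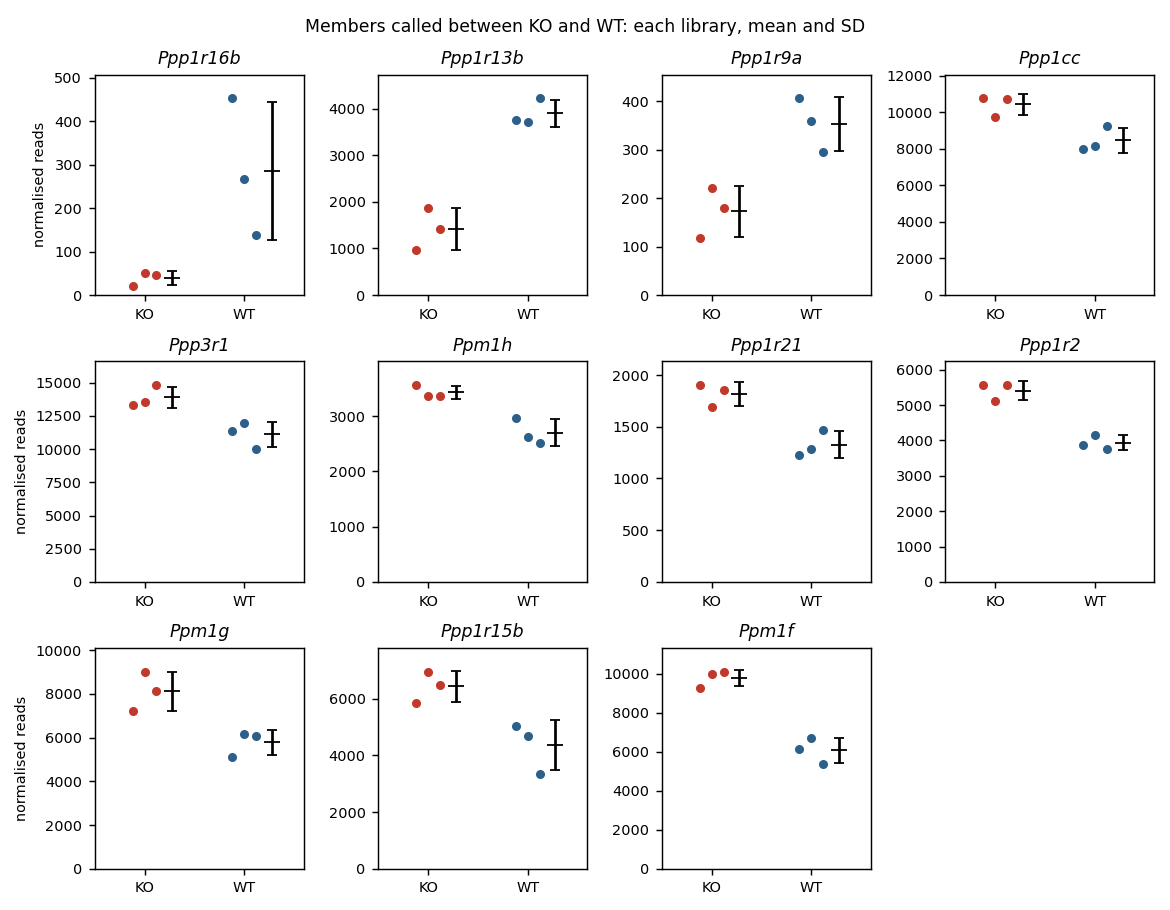
Normalised reads of the 11 called members in each library, with mean and SD beside the points, KO (red) left of WT (blue) and each axis starting at 0. Ppp1r16b, Ppp1r13b and Ppp1r9a are lower in all KO libraries, and the other 8 genes are higher in all KO libraries.

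In the myosin-targeting family, 1 of 5 genes was called, Ppp1r16b, a share of 20% against 23.3% of all genes tested. Ppp1r12a encodes MYPT1, the myosin phosphatase targeting subunit, and had 2198, 2236 and 3144 in KO and 4451, 3830 and 2585 in WT. KO replicate 3 lay above WT replicate 3 (−0.50, adjusted p = 0.147, limma), and the gene passed without WT replicate 3 (−0.73, adjusted p = 0.0384, limma). Ppp1r12c went the other way in its values, with 1115, 744 and 849 in KO and 425, 753 and 416 in WT (0.80, adjusted p = 0.0665, limma). It passed in 3 of 19 alternatives. These were without WT replicate 2 (1.08, adjusted p = 0.0194, limma), with quantile normalization (adjusted p = 0.0422, limma) and with DESeq2 (adjusted p = 0.0222). Ppp1r12b (0.30) and Ppp1r16a (0.30) did not pass. Of the 4 tested glycogen-targeting genes none passed, against 23.3% of all genes tested. Ppp1r3e had 98.6, 84.5 and 144 in KO and 26.9, 73.3 and 52.0 in WT, without overlap (1.16, adjusted p = 0.105, limma), Ppp1r3d overlapped (0.58, and 0.835 with a limma adjusted p of 0.0497 without KO replicate 2), Ppp1r3b stood at 0.11, and Ppp1r3f, at most 64.3 in any library, at −0.93, with 46.9% of its exon length shared with Gm36995 on the same strand. The Ppp1r3f value was −1.92 without KO replicate 1, −0.40 without KO replicate 2, −0.47 without KO replicate 3 and −0.52 without WT replicate 3, and −0.37 with edgeR and −0.36 with DESeq2.

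None of the 4 nuclear and centriolar partners passed, against 23.3% of all genes tested. Ppp1r8, the nuclear inhibitor NIPP1, came closest, with 2182, 2279 and 2452 in KO and 1562, 1948 and 1820 in WT and no overlap (0.38, adjusted p = 0.0518, limma). It passed in 6 of 19 alternatives, among them edgeR (adjusted p = 0.0463) and DESeq2 (adjusted p = 0.0309). Ppp1r10, the transcription-linked partner PNUTS, stood at 0.28, Ppp1r7, the conserved partner SDS22, at 0.02, and Ppp1r35, a centriole protein, at −0.12. Of 7 other genes with a Ppp1r name 14.3% were called, against 23.3% of all genes tested. The called gene, Ppp1r21, an endosomal protein, rose (chromosome 17, 88530118 to 88588367). It had 1903, 1689 and 1855 in KO and 1227, 1285 and 1470 in WT, without overlap (0.45 ± 0.12 SE, adjusted p = 0.0274, limma). Ppp1r21 missed the threshold in 7 of 19 alternatives. Its adjusted p was 0.0733 to 0.105 without KO replicate 1, KO replicate 3, WT replicate 1 or WT replicate 2 and 0.0884 with scaling to total reads. Ppp1r26 had 49.3, 131 and 48.3 in KO and 150, 208 and 163 in WT, without overlap (−1.33, adjusted p = 0.0624, limma). It passed in 3 of 19 alternatives. These were without KO replicate 2 (−1.80, adjusted p = 0.0105, limma), with library quality weights (adjusted p = 0.00767, limma) and with DESeq2 (adjusted p = 0.0428). Ppp1r36, Ppp1r42 and Ppp1r27 stayed under 60 in all libraries, and Ppp1r37 overlapped between the groups. Ppp1r18os, taken by the rule through its name, is an antisense RNA that overlaps the exons of Ppp1r18 by 70 bases and those of Nrm by 200 bases, so without known strand its reads (61.9 to 109 in KO, 105 to 128 in WT) are uncertain.

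Of 4 tested calcineurin genes 1 passed, a share of 25% against 23.3% of all genes tested. The log2 fold change was positive in all 4, as it was in 32 of 48 members and in 9768 of the 20136 genes. Ppp3r1, the calcium-binding B subunit (chromosome 11, 17159263 to 17200375), rose, with 13346, 13519 and 14828 in KO and 11346, 11932 and 10041 in WT and no overlap. Its log2 fold change was 0.33 ± 0.09 (SE, adjusted p = 0.0392, limma), and 14.3% of its exon length is shared with Wdr92 on the same strand. Ppp3r1 missed the threshold in 10 of 19 alternatives. Its adjusted p was 0.0579 to 0.153 when any library other than WT replicate 2 was left out and 0.174 with scaling to total reads. Ppp3ca, the most abundant catalytic A subunit per length, had 6780, 6676 and 6886 in KO and 5879, 5878 and 5379 in WT, without overlap (0.25 ± 0.08 SE, adjusted p = 0.0568, limma). Ppp3cb had 2034, 1793 and 1994 in KO and 2385, 1230 and 2008 in WT, where WT replicate 2 stood low, and its sign turned without that library (−0.18) and with scaling to total reads (−0.04). Ppp3cc had 726, 654 and 727 in KO and 724, 671 and 460 in WT, and the groups overlapped. Per kilobase of exon, Ppp3ca made up 58.9% to 61.3% of the A subunit total in KO and 53.4% to 61.8% in WT.

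Around calcineurin, of 29 genes of a list of calmodulins, regulators and NFAT factors that reached a value of 1 in both groups, 1 rose and 5 fell, with a median log2 fold change of 0.01. Beside each list in this paragraph, 10.3% of all genes tested rose and 13% fell, so 23.3% were called. Nfatc1, an NFAT transcription factor, fell to 2883 ± 234 in KO, against 4565 ± 307 in WT (SD, n = 3 each; −0.66, adjusted p = 0.00400, limma). Calm2, a calmodulin gene, fell (−0.32, adjusted p = 0.0197, limma), and Akap1, a mitochondrial protein kinase A anchor, rose (0.53). Rcan2, a calcineurin inhibitor, passed the filter through WT alone and is left out of these counts. It had 0 in all KO libraries and 9.36, 13.3 and 11.4 in WT. With each KO library set to the 3 reads that a count of 0 allows, KO was 3.89-fold below the observed WT mean. That ratio does not cover counting error in WT. Of 16 tested PP1 partners with other names, 3 rose and 1 fell, with a median of 0.19. Those that rose were the nucleolar proteins Rrp1b (0.50) and Nom1 (0.41) and the proliferation antigen Mki67 (0.38). Phactr1, which binds actin and PP1, fell, with 0, 15.7 and 12.1 in KO and 177, 157 and 102 in WT (−4.56, adjusted p = 0.0171, limma). Of 11 other tested catalytic phosphatase genes, 0 rose and 1 fell, Ppp2ca itself.

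Ppp5c, a phosphatase with tetratricopeptide repeats that works with the chaperone Hsp90, had 7049, 7421 and 6917 in KO and 5451, 5926 and 6301 in WT. The groups did not overlap, and the log2 fold change of 0.28 ± 0.09 (SE) did not pass in limma (adjusted p = 0.0545). Ppp5c passed in 4 of 19 alternatives, among them edgeR (adjusted p = 0.0463) and DESeq2 (adjusted p = 0.0475) on recovered reads, and not in the other 15. Its log2 fold change was 0.13 with scaling to total reads (adjusted p = 0.281, limma) and 0.14 with quantile normalization (adjusted p = 0.253, limma).

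Of 11 tested PPM genes, 3 rose, 0 fell and 8 did not pass, so 27.3% were called, near the 23.3% of all genes tested. Ppm1f, known as POPX2, acts on p21-activated kinases and CaM kinase II (chromosome 16, 16896469 to 16927364). It had 9282, 9956 and 10085 normalised reads in KO and 6120, 6676 and 5388 in WT. The lowest KO library was above the highest WT library by a wide margin, with means of 9774 ± 431 and 6061 ± 646 (SD, n = 3 each), 161% of the WT level. Its log2 fold change was 0.69 ± 0.10 (SE, adjusted p = 0.00315, limma), and the call held in 19 of 19 alternatives, at 0.55 to 0.77. Ppm1g, a nuclear phosphatase linked to splicing (chromosome 5, 31202664 to 31220687), rose, with 7212, 9001 and 8143 in KO and 5107, 6180 and 6048 in WT and no overlap (0.49 ± 0.12 SE, adjusted p = 0.0203, limma). That call was lost without KO replicate 3 (0.48, adjusted p = 0.0729), without WT replicate 1 (0.40, adjusted p = 0.0566), with scaling to total reads (adjusted p = 0.0540) and without the intensity trend of limma (adjusted p = 0.0892). Ppm1h, a phosphatase of Rab GTPases (chromosome 10, 122678762 to 122945795), rose, with 3562, 3361 and 3369 in KO and 2969, 2630 and 2509 in WT and no overlap (0.35 ± 0.10 SE, adjusted p = 0.0388, limma). Ppm1h missed the threshold in 10 of 19 alternatives. Its adjusted p was 0.0634 to 0.113 when any library other than WT replicate 1 was left out and 0.195 with scaling to total reads.

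Ppm1e, the POPX1 paralogue of Ppm1f, had 346, 225 and 294 in KO and 116, 122.8 and 19.9 in WT. The groups did not overlap, WT replicate 3 stood low, and the log2 fold change of 2.09 ± 0.66 (SE) did not pass (adjusted p = 0.0565, limma). Ppm1e passed in 7 of 19 alternatives, among them DESeq2 (1.75, adjusted p = 0.00627). It also passed with robust moderation, library quality weights, quantile normalization and a minimum value of 5 (adjusted p = 0.0219 to 0.0472, limma). The others were without WT replicate 2 (2.53, adjusted p = 0.0497, limma) and without WT replicate 3 (1.25, adjusted p = 0.0290, limma). It did not pass with edgeR (adjusted p = 0.06) or with scaling to total reads (adjusted p = 0.0857, limma). Ppm1d, which encodes the p53-induced phosphatase WIP1, had 1881, 2323 and 2190 in KO and 2205, 2404 and 2319 in WT, and the groups overlapped (−0.12, 95% interval −0.38 to 0.14). Ppm1b, which acts on stress-activated kinase pathways, had 6879, 7226 and 7464 in KO and 7306, 6969 and 7145 in WT (0.01, 95% interval −0.17 to 0.19), and its sign turned in 4 of 19 alternatives. Ppm1a, a phosphatase of SMAD proteins, had 2897, 2238 and 2550 in KO and 2546, 1942 and 1909 in WT (0.27, adjusted p = 0.248, limma). Ppm1m had 1343, 1648 and 1786 in KO and 935, 1426 and 1196 in WT (0.44, adjusted p = 0.129, limma). Ppm1l, an endoplasmic reticulum membrane phosphatase, had 292, 485 and 364 in KO and 566, 482 and 694 in WT (−0.62, adjusted p = 0.0966, limma). It passed in 2 of 19 alternatives, without KO replicate 2 (−0.82, adjusted p = 0.0419, limma) and with library quality weights (adjusted p = 0.036, limma). Ppm1k, the mitochondrial phosphatase of branched-chain ketoacid dehydrogenase, had 326, 442 and 453 in KO and 521, 464 and 418 in WT (−0.21), and Ppm1j had 4.29, 8.84 and 0 in KO and 12.9, 1.90 and 15.1 in WT (−1.21, adjusted p = 0.473, limma). Per kilobase of exon, Ppm1f held 29.1%, 27.9% and 28.6% of the PPM total in KO and 23.1%, 23.4% and 20.2% in WT, while Ppm1b held 20.2%, 19.0% and 19.8% in KO and 25.9%, 22.9% and 25.1% in WT. Ppm1f was thus first of the PPM genes by this measure in all KO libraries, and Ppm1b was first in WT replicates 1 and 3, with Ppm1f first in WT replicate 2. That last order rests on the exon lengths used, since in normalised reads Ppm1b was above Ppm1f in WT replicate 2 (6969 against 6676).

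**Figure D5:**
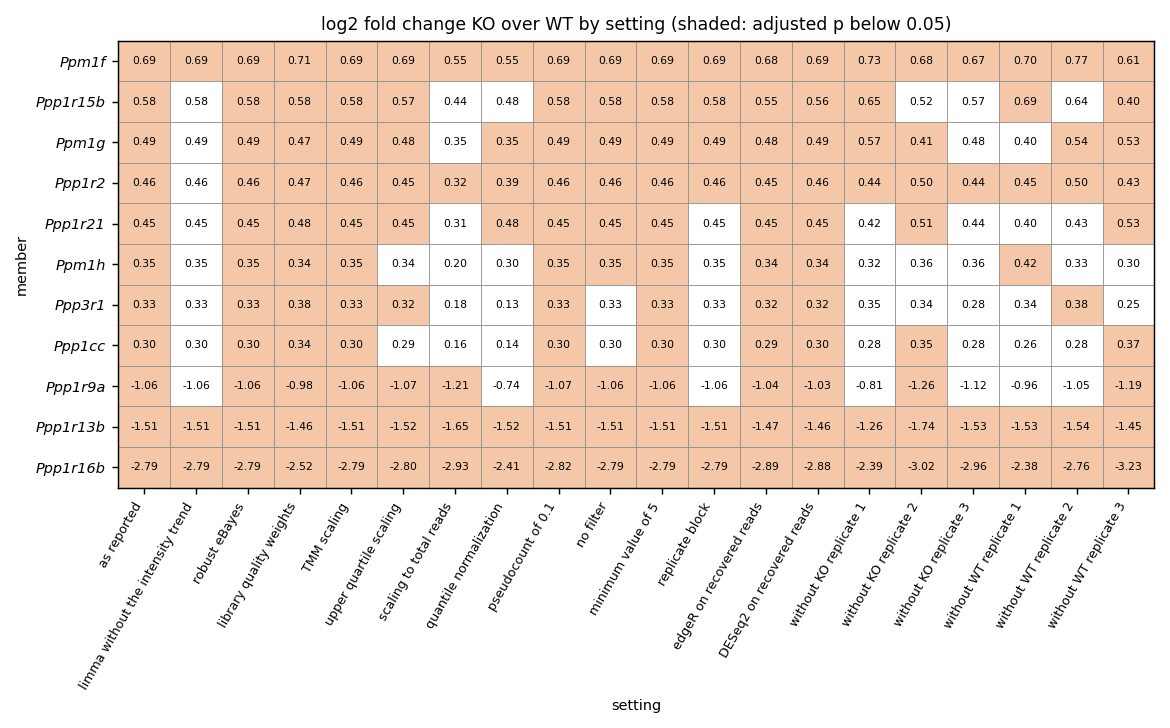
Log2 fold change of KO over WT of the 11 called members (down the page) as reported and under 19 alternative settings (across), shaded where adjusted p is below 0.05. Ppm1f, Ppp1r13b and Ppp1r16b are shaded throughout, and Ppp1cc, Ppp3r1 and Ppm1h lose shading in 10 settings each.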

How the data were processed

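Per the labels' protocols, poly(A) RNA was made into libraries with a Vazyme mRNA-seq kit. The submitters' processing notes name HISAT2, StringTie, mm8 and mm10 without roles. Strand and counting method are not given in the sources used here. Each deposited signal was a whole multiple of a step per library within 0.01 reads (100% of values), so the authors' values are read counts divided by a size factor. All 49035 identifiers found in GENCODE M21 had unchanged positions, so coordinates are on GRCm38. Exon lengths come from M21, also for members whose identifier version differs.

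KO (3) was compared with WT (3) on log2(value + 1), which understates changes of low genes. The test was limma 3.58.1 (R 4.3.3), with moderation along an intensity trend, for genes that reached a value of 1 in 3 or more libraries. P-values were two-sided and adjusted over 20136 genes. The members and lists were chosen with earlier results of these data known. Called members and the catalytic genes that were tested are named with all values. On recovered reads, edgeR 4.0.16 called 2075 genes higher and 2496 lower, and DESeq2 1.42.0 called 2424 and 2960. Scaling to total reads was added after seeing the data. Replicates differed beyond counting noise (chi-square per degree of freedom 38.0 to 80.5), and floors cover counting error only. The procedure was tested on simulated data.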

Additional observations from a re-analysis of the deposited data

How the results depend on the processing

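Of the 11 called members, the calls of Ppm1f, Ppp1r13b and Ppp1r16b held in 19 of 19 alternatives, and that of Ppp1r2 in 18. Members called higher numbered 8 as reported, 1 without the intensity trend, 15 with library quality weights, 13 with DESeq2, 4 with the replicate block, 2 with scaling to total reads and 2 to 7 when a library was left out. Members called lower numbered 3 as reported, 5 with library quality weights and 2 to 5 when a library was left out. Of all genes tested, 2069 were higher as reported, 1071 without the intensity trend, 3198 with library quality weights, 1307 with scaling to total reads and 993 to 1787 when a library was left out, and 1565 to 2604 were lower, against 2622 as reported. Same-numbered libraries of KO and WT did not deviate together (correlations of −0.02, −0.01 and −0.02), so the numbers are not treated as pairs. The replicate block called 2 members and 2157 genes lower and 1705 genes higher, and Ppm1h, Ppp1cc, Ppp1r21, Ppp1r9a and Ppp3r1 were not called under it. In this check, 0 of 6 libraries correlated best with their own number. Quantile normalization moved the median of all genes from −0.02 to 0.08. Signs turned for members that passed no test. With quantile normalization these were Ppm1b (−0.13), Ppm1k (0.0489), Ppp1ca (−0.23), Ppp1r7 (−0.0881) and Ppp1r18os (0.0306). With scaling to total reads they were Ppm1b (−0.13), Ppp1ca (−0.0891), Ppp1r13l (−0.0886), Ppp1r18 (−0.0498), Ppp1r3b (−0.0373), Ppp1r7 (−0.12) and Ppp3cb (−0.0412), and with library quality weights Ppp1r27 (0.86). Leaving out a library gave −0.0179 to 0.041 for Ppm1b, −0.29 to 0.435 for Ppp1r13l, −0.0118 to 0.0728 for Ppp1r7 and −0.18 to 0.302 for Ppp3cb. The cause was not tested. The tested members with fewer than 60 normalised reads in every library had intervals over 2 log2 units wide.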
